A study of Rattus norvegicus with 12 samples.

Results

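RNA of rat joint tissue was compared between 4 libraries labelled treatment and 4 labelled model, out of 12 in the series, in the deposited table that holds these columns. All genes of that table were taken, 22588 in number, of which 20328 had a mean normalised count of at least 1 over the 8 libraries and were tested. Treatment stands for the circum-knee acupuncture named in the series title, and model for the knee osteoarthritis model that the title implies. The labels do not state how the model was made, when or for how long needles were applied, the rats' strain, age or sex, or which parts of the joint were taken, and 4 sham libraries are used below for the range of their values alone. Whether the 4 libraries of a group came from different rats is not labelled, and a p-value here reflects library-to-library spread alone, which may be technical. Genes that mark joint tissue were read in all 8 libraries. Col2a1, the collagen of cartilage, ran from 4989 to 183702 normalised counts in treatment libraries and from 337 to 31310 in model libraries, and Prg4, the lubricant of the joint surface, from 4581 to 126813 and from 2999 to 62597 in the same order of groups.

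A knee holds cartilage, synovium, ligament and tendon around bone ends that enclose red marrow. Red marrow is where blood stem cells divide and mature into red cells, platelets, granulocytes and B cells, along lineages that each switch on their own genes: globins and haem enzymes in erythroblasts, azurophil and later specific granule proteins in neutrophils, basic proteins in eosinophils, and the pre-B cell receptor in B cell precursors. Fibroblasts of synovium and tendon make collagens, fibronectin and the enzymes that process them. Most cells also run a circadian clock, in which CLOCK and BMAL1 switch on genes such as Dbp, Nr1d1 and Bhlhe40 through E-box sites, while acupuncture studies often look at inflammation, pain signalling and cartilage breakdown.

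The libraries held 15513066 to 17218404 reads assigned to genes and reads in 18949 to 20045 genes, so depth was alike. The gene with most reads was Fn1 in every treatment library (1.38% to 4.79% of reads) and Hba-a1 in every model library (4.15% to 6.22%). Between pairs of libraries within a group, chi-square over genes divided by its degrees of freedom was 64.0 to 342, far above what counting alone gives. Treatment 2 stood apart, with 9.03% of its reads from mitochondrial genes against 3.36% to 3.85% in treatment 1, 3 and 4 and 3.60% to 6.79% in model libraries, and with a loading of -0.79 on the second principal component (16.9% of variance). Its skeletal muscle reads are given below beside the genes they move with.

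More genes were lower than higher in treatment joints, and by larger folds. Most genes listed for red cells, granulocytes, platelet precursors and B cells fell, and some genes of the circadian clock, of hypoxia and glycolysis, and of fibroblasts and tendon rose. Of the 20328 genes tested, 2870 (14.1%) were called at a limma adjusted p under 0.05, 2139 (10.5%) lower and 731 (3.6%) higher in treatment. Lower calls had a median log2 fold change of -2.47 and 842 of them lay beyond 8-fold, whereas higher calls had a median of 1.24 and 24 lay beyond 8-fold. In 134 of the lower calls all 4 treatment libraries held 0 reads, and in 7 of the higher calls all 4 model libraries did. The median over all genes tested was 0.02. Lower calls made up 74.5% of the calls, and 88.9% (2735 lower, 340 higher) when values were scaled to total reads, a scaling that moved the median of all genes to -0.14. Groups did not overlap at 2793 lower (13.7%) and 1729 higher (8.51%) genes. Among 46 gene lists, 24 of cell types and 22 of pathways, the medians ran from -6.49 for early neutrophil genes to 3.61 for skeletal muscle genes.

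**Figure D1:**
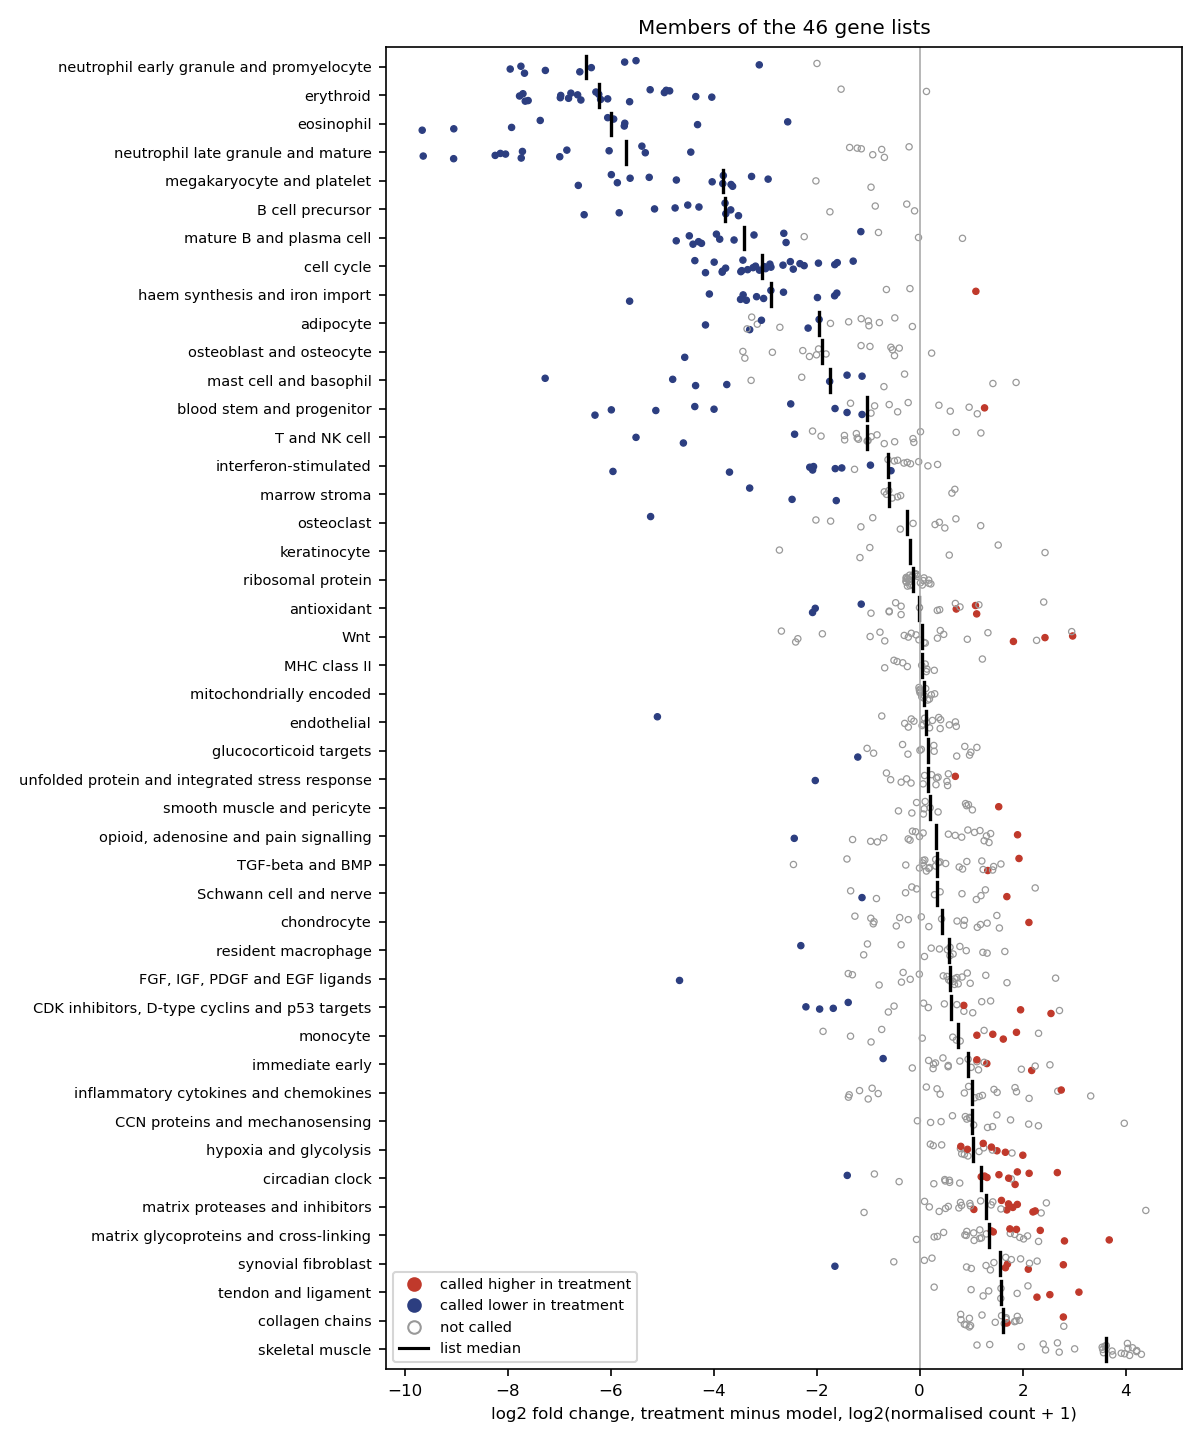
Log2 fold change of every tested member of the 46 gene lists (treatment minus model, horizontal axis), with called members filled, other members open and a black bar at each list's median. Lists of marrow lineages lie at the top with medians from -6.49 for early neutrophil genes, and matrix, tendon and muscle lists at the bottom, where the muscle list has the highest median (3.61) and 0 of 24 members called.

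Of the gene lists, that of red cell precursors lost the most reads. Of 23 erythroid genes tested, 21 fell and 0 rose, against 10.5% lower and 3.6% higher calls among all genes, and the list's median was -6.23. In bulk tissue, fewer cells of a type and less RNA per cell cannot be told apart, here and for every lineage below. The labels do not state which joint parts were taken, so marrow share of a sample and treatment cannot be told apart. That limit holds for the rises below as well. Hba-a1, an alpha globin, held 72921, 35943, 28816 and 4958 normalised counts in treatment 1 to 4, against 983152, 648721, 648001 and 633130 in model 1 to 4. All treatment libraries lay far below all model libraries, and treatment 4 was the lowest. It fell by 4.85 ± 0.72 (log2 fold change ± SE, adjusted p = 0.00422). Its gene model spans several globin copies (chromosome 10, 15307815 to 15338392, mRatBN7.2), so reads of single copies cannot be told apart. Hbb, the beta globin, fell by 5.23 ± 0.72.

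Genes of the red cell membrane had larger fitted falls than the globins, a difference that was not tested. Slc4a1, the band 3 anion exchanger, had 176, 342, 738 and 11.4 normalised counts in treatment libraries, against 57115, 13814, 27744 and 36180 in model libraries. Treatment 4 was the lowest and treatment 3 the highest of the treatment group, and the groups did not overlap. Its log2 fold change was -7.60 ± 1.12 (adjusted p = 0.00416). Rhag, the Rh-associated ammonia channel, fell by 7.77 ± 1.15 and was at 0 in treatment 4. Trim58, a ubiquitin ligase of late erythroblasts, fell by 7.91 ± 1.04.

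Haem synthesis fell along nearly its whole path. Of 15 genes for haem synthesis and iron import, 12 fell and 1 rose, against 10.5% lower and 3.6% higher calls among all genes. Alas2, the first and rate-limiting enzyme in red cell precursors (chromosome X, 19463171 to 19486519), had 620, 361, 477 and 85.4 normalised counts in treatment libraries, against 25013, 10414, 13787 and 15556 in model libraries, a fall of 5.63 ± 0.58 (adjusted p = 0.00157). Slc25a37, mitoferrin, which brings iron into mitochondria, fell by 4.08 ± 0.38 and Alad, the second enzyme, by 3.36 ± 0.40. Steap3, an iron reductase that macrophages and other cells also make, rose instead (1.09 ± 0.25, adjusted p = 0.0234). That call was lost without treatment 1, 3 or 4 or without model 1 or 4 (adjusted p = 0.0535 to 0.0806), and every other call named in this paragraph and the pair before it held without any single library.

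Red cell genes are switched on by GATA1, which binds the letters GATAAG. The promoters of Hba-a1 and Rhag are shown because both genes fell and carry that site. They are RefSeq's 250 bases before to 50 after the gene's start in GRCr8, read on the minus strand in both genes, at chr10:15842531-15842830 and chr9:27594341-27594640, with the site in capitals on either strand.
Hba-a1: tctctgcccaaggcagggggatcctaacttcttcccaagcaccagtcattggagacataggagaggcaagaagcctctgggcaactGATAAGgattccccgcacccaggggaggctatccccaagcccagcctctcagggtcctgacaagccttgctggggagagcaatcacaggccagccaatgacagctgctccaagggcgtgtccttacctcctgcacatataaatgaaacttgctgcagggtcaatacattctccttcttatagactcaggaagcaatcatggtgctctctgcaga
Rhag: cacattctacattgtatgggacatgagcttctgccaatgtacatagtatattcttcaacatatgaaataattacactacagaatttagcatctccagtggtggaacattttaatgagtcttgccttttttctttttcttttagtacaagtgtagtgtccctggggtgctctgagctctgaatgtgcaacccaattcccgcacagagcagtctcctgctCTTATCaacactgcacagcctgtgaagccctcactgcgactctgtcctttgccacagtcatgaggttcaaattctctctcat
The letters CTTATC or GATAAG occurred in 9 of the 21 erythroid promoters in the table, and in 6.91% of all 27457 promoters. Among promoters of all genes called lower they occurred in 6.58%, and among those of genes tested in 5.43%. These motifs, and those shown further on for other groups, were kept from a wider search as those of each group's known factor, and a match is only a description of the letters.

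Most granulocyte genes fell, against 10.5% lower calls among all genes. Of 10 genes of early neutrophils and promyelocytes 9 fell, of 20 genes of late and mature neutrophils 13 fell, and all 10 eosinophil genes fell, with 0 rising in any of these lists. Elane, neutrophil elastase, held 45.6, 21.6, 112 and 0 normalised counts in treatment libraries, against 5361, 2100, 4259 and 4293 in model libraries. Mpo, myeloperoxidase, fell by 6.60 ± 1.0 and Ctsg, cathepsin G, by 7.95 ± 1.52. These proteins fill the granules that form first, at the promyelocyte stage.

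Several late neutrophil genes had another order of libraries than Elane, Mpo and Ctsg. Ngp, neutrophilic granule protein, had 35.0, 586, 30.0 and 2.85 normalised counts in treatment libraries, against 36905, 7756, 22608 and 30548 in model libraries (-9.05 ± 1.30, adjusted p = 0.00368). S100a9, a calprotectin subunit, had 207, 1210, 77.9 and 24.7 in treatment libraries, against 61275, 18574, 39948 and 71233 in model libraries. Treatment 2 was the highest treatment library for Ngp, Camp, Mmp8, Cd177, S100a8 and S100a9, while treatment 3 was the highest for Elane, Mpo, Ctsg, Prg2 and Epx. In model libraries, model 2 was the lowest for all 11 of these genes. The order did not hold for whole lists. In the early list, Np4 (691) and Nkg7 (33.9) were highest in treatment 1 and Serpinb1a (978) in treatment 4. In the late list, Cxcr2 (69.9) was highest in treatment 3. The 7 late neutrophil genes that were not called had log2 fold changes of -1.36 to -0.20 and, picked out after their values were seen, include Ltf, Mmp9, Itgam, Ncf1, Ncf4 and Anxa1. Macrophages also make several of these.

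All the eosinophil genes tested fell, among them Gata1, which is also in the erythroid list. Prg2, the major basic protein, had 6.36, 18.2, 131 and 0 normalised counts in treatment libraries, against 31599, 1515, 15022 and 11059 in model libraries. Model 2 was far below the other model libraries but still above treatment 3, the highest treatment library. Epx, eosinophil peroxidase, had 26.5, 22.7, 72.9 and 3.80 in treatment libraries, against 18714, 899, 8069 and 5914 in model libraries (-7.92 ± 1.03, adjusted p = 0.00256).

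Mast cell and basophil genes fell in part. Of 13 tested, 7 fell and 0 rose, against 10.5% lower calls among all genes. Ms4a2, the beta chain of the IgE receptor, fell by 4.35 ± 0.55 and Hdc, which makes histamine, by 3.74 ± 0.47, whereas Cpa3, carboxypeptidase A of mast cells, had 98.6, 29.6, 80.9 and 60.7 normalised counts in treatment libraries, against 53, 82.5, 123 and 188 in model libraries. The groups overlapped for Cpa3 (-0.69 ± 0.49, adjusted p = 0.368). The mast cell proteases Tpsb2 (1.42) and Tpsab1 (1.87), also named after their values were seen, were above 0 in log2 fold change and not called.

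Genes of platelet precursors fell too, against 10.5% lower calls among all genes. In the megakaryocyte and platelet list 13 of 15 genes fell (median -3.82), 9 of them without treatment 1 or without model 1, 3 or 4. Itga2b, integrin alpha IIb, had 141, 275, 161 and 71.2 normalised counts in treatment libraries, against 3684, 436, 2532 and 2647 in model libraries (-3.63 ± 0.67, adjusted p = 0.0102). Only model 2 came near the treatment group. Pf4, platelet factor 4, was not called (-0.94 ± 0.54, adjusted p = 0.267) and treatment 4, at 2244, lay within the model range of 746 to 3418.

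Of 20 stem and progenitor genes 9 fell and 1 rose (median -1.03), against 10.5% lower and 3.6% higher calls among all genes. Myb, a factor of dividing blood progenitors, had 19.1, 40.9, 29.0 and 2.85 normalised counts in treatment libraries, against 2522, 1045, 1336 and 1072 in model libraries (-6.30 ± 0.70, adjusted p = 0.00191). Kit, the stem cell factor receptor, which mast cells also carry, fell by 1.12 ± 0.19. The member that rose, Hlf, is also a clock output gene and is described with the clock.

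B cell genes fell in the precursor and the mature list. In the precursor list 10 of 14 fell (median -3.77) and in the list of mature B and plasma cells 12 of 16 (median -3.41), with 0 rising. Rag1, which cuts DNA to assemble receptors, had 15.9, 6.82, 19.0 and 0 normalised counts in treatment libraries, against 1163, 1135, 508 and 273 in model libraries. Here model 2 was among the 2 highest, unlike in the granulocyte genes. Jchain, which joins antibody chains in plasma cells, had 1474, 277, 459 and 1151 in treatment libraries, against 25099, 5010, 14246 and 15279 in model libraries (-4.24 ± 0.63, adjusted p = 0.00417). Cd79b (-4.75 ± 0.41) and Ms4a1 (-4.40 ± 0.37), both on the B cell surface, had adjusted p = 0.000944, and Vpreb1 of the pre-B cell receptor fell by 3.52 ± 0.95, a call lost without treatment 1, 3 or 4 or model 1, 3 or 4 (adjusted p = 0.0611 to 0.1). Of 32 antibody V genes tested, 20 fell and 0 rose. For these and the B cell lists, the share called lower among all genes was 10.5%.

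T cell genes were mostly not called, as were most genes tested, of which 10.5% were called lower. Of 21 T and NK cell genes 3 fell, the killer cell genes Ncr1 (-4.59 ± 0.88) and Nkg7 (-5.51 ± 0.44), the second of which is also in the early neutrophil list, and Eomes. Cd3e, part of the T cell receptor, had 48.8, 7.96, 73.9 and 68.3 normalised counts in treatment libraries, against 34.6, 92.9, 57.5 and 78.4 in model libraries. Treatment 2 alone lay below the model group, and the difference was -0.69 ± 0.69 (adjusted p = 0.534).

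The lineages kept different shares of their reads. The summed RPM (reads scaled to the same library total) of a list in treatment libraries, as a share of the model mean, was 0.671% for eosinophils, 2.50% for early neutrophils and 4.0% for red cells. It was 10.3% for mast cells and basophils, 12.9% for megakaryocytes, 13.2% for late neutrophils, 17.4% for mature B cells and 26.7% for B cell precursors. T and NK cell genes kept 33.2% and stem and progenitor genes 41.2%. Sums weigh abundant members most, and the median member gave another order. By that measure, red cell genes kept 1.32% of the model mean, early neutrophil genes 1.78%, late neutrophil genes 1.81% and eosinophil genes 1.88%. The median member kept 4.61% in the megakaryocyte list, 5.74% in B cell precursors and 9.11% in mature B cells. It kept 29.2% in mast cells and basophils, 51.6% in stem and progenitor cells and 57.1% in T and NK cells. In the summed RPM of each of these 10 lists, every treatment library summed to less than every model library. The T and NK sum includes Nkg7, which is also in the early neutrophil list. Nkg7 had 10.2 to 33.9 normalised counts in treatment libraries, against 585 to 1531 in model libraries. No sum was taken without it, so a separation of the other T and NK cell genes is not shown.

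The sums of single treatment libraries ranked differently by list. Erythroid genes summed to 4923, 2719, 2070 and 436 RPM in treatment libraries, against 87820, 52173, 55767 and 57842 in model libraries, so treatment 4 was the lowest at 0.687% of the model mean. For late neutrophils the sums were 1660, 1011, 1366 and 2050 in treatment libraries, against 14995, 4497, 10081 and 16372 in model libraries, and treatment 4 was the highest at 17.9%. That sum holds the members that were not called, such as Itgam and Mmp9, whereas treatment 4 was the lowest treatment library for Ngp, Camp, Mmp8, Cd177, S100a8 and S100a9. For eosinophils they were 14.1, 10.9, 24.4 and 5.50 in treatment libraries, against 4143, 355, 1967 and 1713 in model libraries. Sham libraries, which entered no test here, summed to 42845 to 66337 for erythroid genes, 15646 to 27147 for late neutrophils and 3119 to 5686 for eosinophils, so treatment libraries lay below sham ones too.

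**Figure D2:**
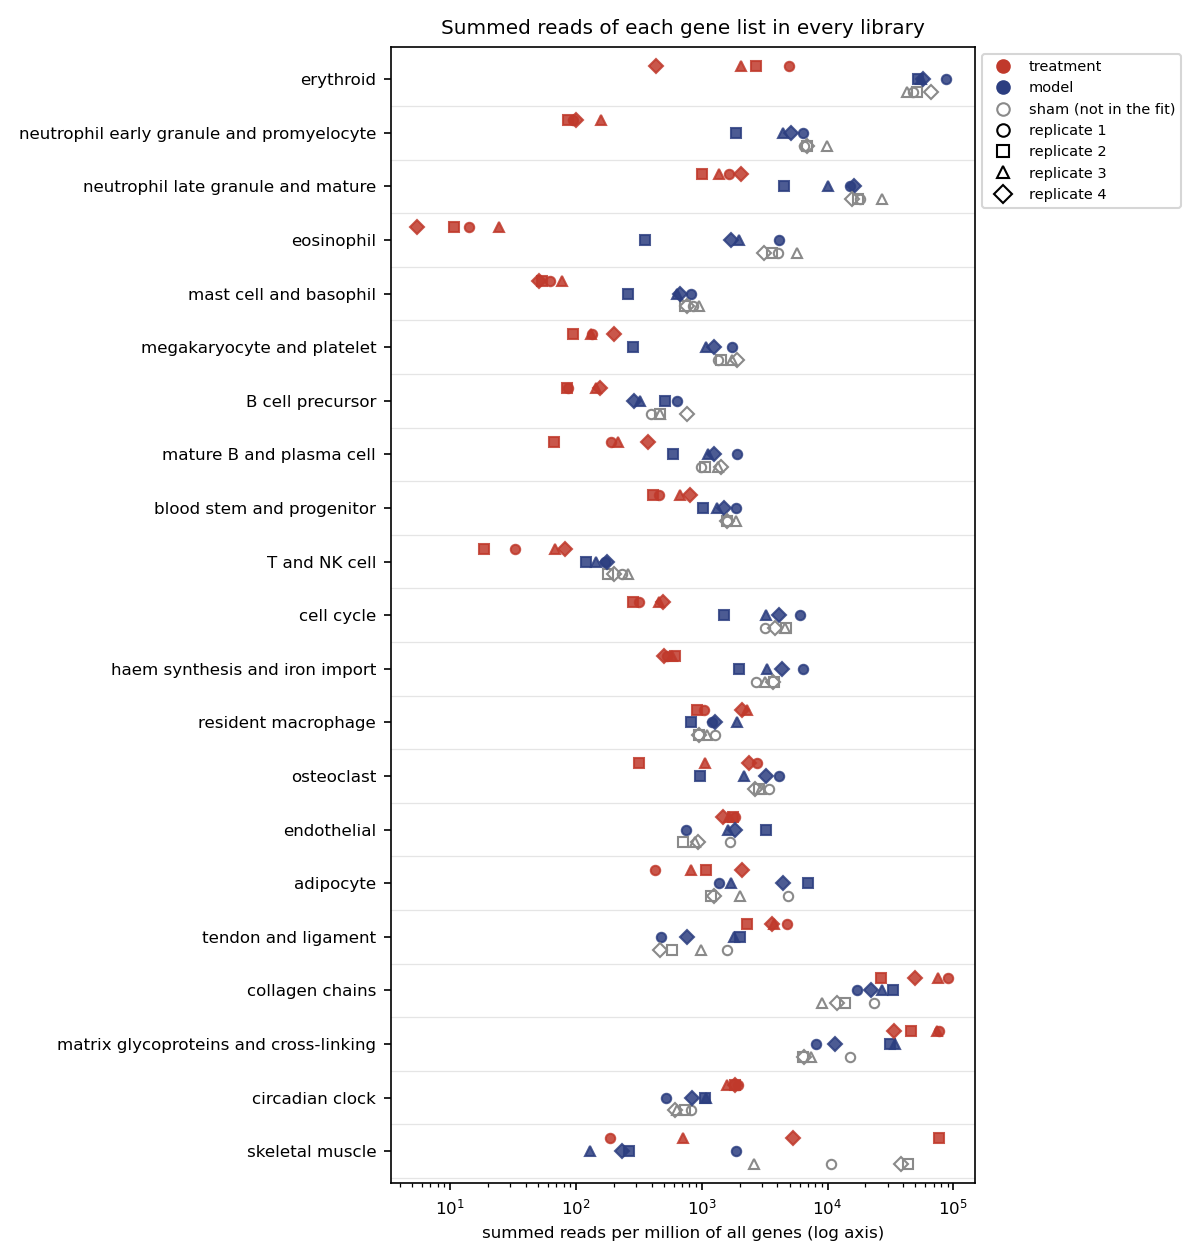
Summed RPM of 21 gene lists (log axis) in each treatment library (red, above), model library (blue) and sham library (open grey, not in the fit), with a symbol for each replicate number. Erythroid sums were 436 to 4923 in treatment libraries and 52173 to 87820 in model libraries, and the single treatment library far to the right in skeletal muscle is treatment 2, at 77201.

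Genes of dividing cells fell together, against 10.5% lower calls among all genes. All 26 cell cycle genes fell (median -3.06) and their sums were 317, 286, 462 and 496 RPM in treatment libraries, against 6072, 1496, 3269 and 4109 in model libraries, or 10.4% of the model mean. Mki67, which marks cells in cycle, had 514, 479, 862 and 941 normalised counts in treatment libraries, against 23910, 4774, 12234 and 14595 in model libraries (-4.16 ± 0.47, adjusted p = 0.00196). No treatment library reached model 2, the lowest of the model group. Top2a, which untangles DNA, fell by 3.83 ± 0.43, and E2f2, a factor that red cell precursors use to divide, by 4.36 ± 0.39. Without any single library 24 to 26 members fell.

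E2F factors switch on DNA replication genes. The promoters of Mcm5 and Mcm3, subunits of the replicative helicase, are shown because each holds more than 1 E2F site; they were picked for that after the search. They lie in GRCr8 at chr19:13488563-13488862 (plus strand) and chr9:30733697-30733996 (minus strand), with the letters TTTCGCGC, TTTGGCGC and TTTCCCGC in capitals on either strand; in Mcm5 a pair of matches overlap in 1 run.
Mcm5: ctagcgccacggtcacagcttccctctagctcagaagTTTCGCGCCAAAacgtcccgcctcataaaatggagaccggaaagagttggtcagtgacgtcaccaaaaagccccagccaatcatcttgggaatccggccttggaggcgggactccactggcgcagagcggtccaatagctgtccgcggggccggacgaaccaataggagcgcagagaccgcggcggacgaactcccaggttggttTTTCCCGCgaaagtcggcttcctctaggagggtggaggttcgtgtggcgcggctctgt
Mcm3: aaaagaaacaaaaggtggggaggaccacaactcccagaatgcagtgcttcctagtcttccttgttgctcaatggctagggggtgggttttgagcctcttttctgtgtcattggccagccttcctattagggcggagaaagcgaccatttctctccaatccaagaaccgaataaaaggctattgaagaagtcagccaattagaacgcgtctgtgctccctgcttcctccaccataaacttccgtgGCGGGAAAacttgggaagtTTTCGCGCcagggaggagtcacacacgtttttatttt
At least 1 of these 3 sites occurred in 7 of 19 cell cycle promoters and in 1.82% of all promoters. Singly, TTTCGCGC, TTTGGCGC and TTTCCCGC occurred in 0.57%, 0.807% and 1.81% of promoters of genes tested. Among promoters of genes called lower the shares were 1.51%, 1.74% and 3.4%, in the same order. Mcm5 had 129, 175, 340 and 370 normalised counts in treatment libraries, against 3106, 733, 1758 and 2288 in model libraries (-2.91 ± 0.49, adjusted p = 0.00703). Mcm3 fell by 2.65 ± 0.42.

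Regulators of the cell cycle moved in both directions. Of 18 CDK inhibitors, D-type cyclins and p53 targets, 4 fell and 3 rose, against 10.5% lower and 3.6% higher calls among all genes. Cdkn1a, the inhibitor p21, had 655, 938, 857 and 1872 normalised counts in treatment libraries, against 124, 188, 191 and 184 in model libraries. Every treatment library was above every model library, and treatment 4 was the highest. It rose by 2.55 ± 0.32 (adjusted p = 0.00226) and kept its call without any single library. Cdkn2b, the inhibitor p15, rose by 1.96 ± 0.52 (adjusted p = 0.0395), with treatment 2, at 58.0, below the highest model library, at 61.4; the call was lost without treatment 1, 3 or 4 or model 1 or 4 (adjusted p = 0.0858 to 0.108). Gadd45b, a stress-induced gene, rose by 0.86 ± 0.22, a call lost without treatment 3 or 4 or model 1, 3 or 4 (adjusted p = 0.0751 to 0.104).

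Inhibitors p18 and p19 fell. Cdkn2c, p18, had 312, 316, 290 and 281 normalised counts in treatment libraries, against 1579, 902, 998.5 and 1237 in model libraries (-1.94 ± 0.19, adjusted p = 0.00113), and Cdkn2d, p19, had 301, 303, 315 and 307, against 1613, 541, 847 and 1255 in model libraries (-1.68 ± 0.31). The treatment libraries agreed closely for both, and the model libraries spread. Ccnd3, cyclin D3, fell by 2.21 ± 0.30 and Btg2, an antiproliferative p53 target, by 1.39 ± 0.18. Cdkn2a was not called (2.72 ± 0.81, adjusted p = 0.0572), and neither was Ccnd1, cyclin D1 (1.03 ± 0.36, adjusted p = 0.0893), although groups did not overlap for either.

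Few macrophage genes fell, against 10.5% lower and 3.6% higher calls among all genes. Of 14 monocyte genes 0 fell and 4 rose (median 0.75), and of 16 resident macrophage genes 1 fell and 0 rose (median 0.57). In lists this short, such counts of falls lie near the share over all genes. Cd14, a receptor for bacterial lipid, had 1850, 1192, 3037 and 3517 normalised counts in treatment libraries, against 470, 826, 1200 and 556 in model libraries. Treatment 2 lay just under model 3 and the other 3 treatment libraries above the model group (1.63 ± 0.40, adjusted p = 0.0308). S100a4 (1.42 ± 0.37), Vcan (1.88 ± 0.47) and Klf4 (1.11 ± 0.29) also rose, genes that fibroblasts make too. Without treatment 1, 3 or 4, or without model 1 or 4, 0 of the 4 were called, and Klf4 was lost without treatment 2 as well (adjusted p = 0.0587 to 0.117 for the 4).

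Single macrophage genes differed by library. C1qa, a complement chain of tissue macrophages, had 2731, 2630, 7318 and 5393 normalised counts in treatment libraries, against 2407, 2045, 4284 and 2623 in model libraries, with overlapping groups (0.59 ± 0.38, adjusted p = 0.317). Vsig4, a complement receptor of lining macrophages, was at 684, 1074 and 1077 in treatment 1 to 3 and at 40.8 in treatment 4, against 186 to 1188 in model libraries. Ccr2, the receptor of recruited monocytes, had -0.94 ± 0.84. Spic, a factor of the macrophages that recycle red cells, had 19.1, 18.2, 21.0 and 35.1 in treatment libraries, against 191, 48.3, 131 and 146 in model libraries (-2.31 ± 0.46, adjusted p = 0.0136), a call lost without model 4 (adjusted p = 0.0548).

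Among bone cells, 1 of 12 osteoclast genes fell, against 10.5% of all genes tested. It was Car2, carbonic anhydrase II, which red cells also make, with 506, 380, 427 and 217 normalised counts in treatment libraries, against 29015, 5353, 13671 and 16524 in model libraries (-5.22 ± 0.49, adjusted p = 0.00106). Ctsk, the bone collagen protease of osteoclasts, had 18227, 3192, 10376 and 21627 in treatment libraries, against 12058, 4565, 5571 and 10936 in model libraries, and was not called (0.49 ± 0.60, adjusted p = 0.619). Sost, sclerostin of osteocytes, fell by 4.56 ± 1.29 (adjusted p = 0.0479) with overlapping groups, and the call was lost without treatment 2, 3 or 4 or model 1, 3 or 4 (adjusted p = 0.082 to 0.117). It was the only call among 16 osteoblast and osteocyte genes.

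Of 11 genes of the marrow's support cells 3 fell, against 10.5% of all genes tested. The list's sums overlapped, at 1460 to 3786 RPM in treatment libraries, against 2164 to 4388 RPM in model libraries. Cxcl12, the chemokine that holds blood stem cells in their niche, had 4891, 5310, 5414 and 5258 normalised counts in treatment libraries, against 17674, 12225, 14209 and 21395 in model libraries. The treatment libraries lay within a narrow range, all below all model libraries (-1.62 ± 0.20, adjusted p = 0.00213). Lepr, the leptin receptor that marks these stromal cells, fell by 2.48 ± 0.34. Adipoq, adiponectin of fat cells, had 83.8, 1076, 342 and 508 in treatment libraries, against 1244, 11733, 1546 and 6619 in model libraries (-3.30 ± 0.92, adjusted p = 0.046), a call lost without treatment 1, 3 or 4 or model 2, 3 or 4 (adjusted p = 0.0573 to 0.131). In the adipocyte list, which shares Adipoq with the support cell list, 5 of 17 fell, and 1 of 17 without model 4.

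An endothelial gene of sinusoids fell, and general vessel genes were not called. Stab2, a scavenger receptor of sinusoidal endothelium, had 8.48, 22.7, 21.0 and 3.80 normalised counts in treatment libraries, against 587, 145, 455 and 819 in model libraries (-5.09 ± 0.67, adjusted p = 0.00266). It was the only call among 18 endothelial genes, whose median was 0.12, against 14.1% called among all genes. Pecam1, which all endothelium carries, had 5071, 5574, 3821 and 3399 in treatment libraries, against 1103, 8608, 3653 and 3495 in model libraries (0.40 ± 0.53, adjusted p = 0.651), and the groups overlapped.

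Some genes outside the lineage lists fell as far. In the interferon-stimulated list 9 of 19 fell and 0 rose (median -0.61), and 4 fell without treatment 3 or without model 4. Among all genes tested, 10.5% were called lower and 3.6% higher. Rsad2, viperin, had 59.4, 42.1, 114 and 35.1 normalised counts in treatment libraries, against 7153, 2220, 3920 and 2561 in model libraries (-5.95 ± 0.45, adjusted p = 0.000944). Ifit1 fell by 3.69 ± 0.49. Among antioxidant genes, Prdx2, the peroxiredoxin that red cells hold in bulk, had 1745, 2576, 2115 and 1636 in treatment libraries, against 12782, 4984, 7536 and 8932 in model libraries (-2.03 ± 0.29). Cat, catalase (-1.13 ± 0.23, lost without model 4, adjusted p = 0.0554), and Gclm of glutathione synthesis (-2.08 ± 0.25) fell too. Of the same list, Sod2 of mitochondria (1.09 ± 0.23), Nqo1 (1.11 ± 0.31) and Prdx1 (0.71 ± 0.19) rose, with Sod2 lost without treatment 3 or model 4, and Nqo1 and Prdx1 lost without treatment 3 or 4 or any 1 model library (adjusted p = 0.0522 to 0.124 for these 3).

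Listed marrow genes held a large part of the lost reads, and listed matrix genes of the gained ones. Differences of the group means in RPM summed to 264490 lost and as many gained. Genes called lower held 64.5% of the loss, and genes called higher held 18.9% of the gain. The erythroid list held 23.0% of the loss, of which Hba-a1 alone held 16.95% of the loss, and late neutrophil genes 3.77%. All marrow lineage, haem and cell cycle lists together, each gene counted once, held 32.8% of the loss and 0.0884% of the gain. The collagen, matrix, protease, tendon, synovial fibroblast and chondrocyte lists together held 35.4% of the gain, led by Fn1 (9.05%), Col3a1 (4.73%) and Col1a1 (3.44%), and skeletal muscle genes 7.65%. RPM values add up to a fixed total, so a loss in some genes raises the share of others.

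**Figure D3:**
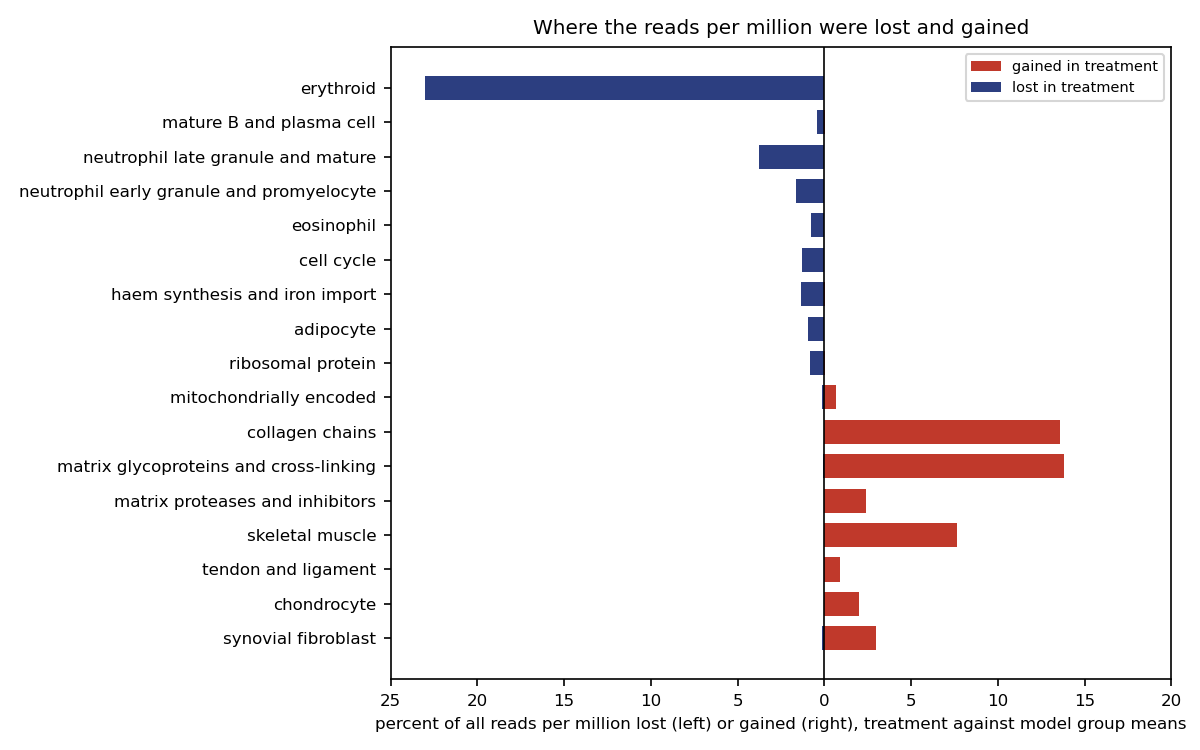
Share of all RPM lost (left, blue) and gained (right, red) in treatment against model group means for 17 gene lists, in percent. The erythroid list held 23.0% of the loss, while collagen chains held 13.6% and matrix glycoproteins 13.8% of the gain.

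Some matrix, fibroblast and tendon genes rose. Postn, periostin of ligaments and healing tissue, had 8356, 16602, 20355 and 10114 normalised counts in treatment libraries, against 669, 3184, 4632 and 1182 in model libraries (2.81 ± 0.60, adjusted p = 0.0179). Thbs4, a thrombospondin of tendon, had 11310, 17351, 21228 and 12324 in treatment libraries, against 1388, 4023, 4515 and 1828 in model libraries (2.53 ± 0.41, adjusted p = 0.00582). Both genes were higher in every treatment library than in any model library, with model 1 and model 4 the lowest. Scx, scleraxis, the tendon cell factor, rose by 2.28 ± 0.43 and Mmp11, stromelysin 3, by 2.24 ± 0.33. Thbs4, Scx and Mmp11 kept their calls without any single library, and Postn lost its call without treatment 3 or model 4 (adjusted p = 0.0548 and 0.0634).

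By list, 3 of 11 tendon genes rose (median 1.58), 7 of 26 matrix glycoproteins and cross-linking enzymes (median 1.35), 8 of 26 proteases and inhibitors (median 1.29) and 2 of 20 collagen chains (median 1.62), with 0 falling in these lists. Over all genes tested, 3.6% were called higher and 10.5% lower. Of 18 synovial fibroblast genes 4 rose and 1 fell (median 1.56). All these lists but the tendon one came down to 0 or 1 rising member without treatment 3 or without model 4. Tnn, tenascin N (3.68 ± 0.96), Kera, keratocan (3.09 ± 0.82), Comp of cartilage and tendon (2.12 ± 0.58), Bgn, biglycan (1.75 ± 0.48), Timp1, a protease inhibitor (1.90 ± 0.45), Adamts2, which trims procollagen (1.81 ± 0.38), P4ha1, a collagen prolyl hydroxylase (1.39 ± 0.33), Pdgfra of fibroblasts (1.67 ± 0.38), Pdpn of the synovial lining (2.11 ± 0.55) and Col14a1 (2.79 ± 0.73) were called. Each lost its call without treatment 3 and without model 4, and all but Adamts2 without further libraries (adjusted p of 0.0507 to 0.121 where lost).

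The matrix genes that gained most reads were not called. Fn1, fibronectin, had 787253, 635389, 823738 and 221931 normalised counts in treatment libraries, against 35446, 272097, 344515 and 45501 in model libraries (2.31 ± 0.82, adjusted p = 0.0946). Treatment 4 lay inside the model range, and model 1 and 4 were far below model 2 and 3. Col1a1 had 535396, 108450, 364172 and 215145 in treatment libraries, against 150083, 119055, 117282 and 148490 in model libraries (0.97 ± 0.47, adjusted p = 0.195). Col3a1 was higher in every treatment library, from 170011 to 405155, than in any model library, from 5905 to 114987, at 2.80 ± 0.89 (adjusted p = 0.0679).

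None of the 10 standard osteoarthritis readouts was called, neither of cartilage nor of its breakdown or inflammation. Acan, aggrecan, had 17198, 1240, 7196 and 4624 normalised counts in treatment libraries, against 2437, 529, 3404 and 2197 in model libraries (1.55 ± 0.83, adjusted p = 0.236). Mmp13, collagenase 3, had 8348, 212, 3830 and 1374 in treatment libraries, against 5968, 1737, 1866 and 9598 in model libraries (-1.08 ± 1.08, adjusted p = 0.532). For Acan, treatment 1, 3 and 4 lay above every model library and treatment 2 lay within the model range, while for Mmp13 the groups overlapped widely. Col2a1 (1.12 ± 1.61), Mmp3 (2.36 ± 0.98), Adamts4 (0.19 ± 0.82), Adamts5 (0.56 ± 0.35), Prg4 (1.37 ± 1.30), Il1b (-1.0 ± 0.66), Il6 (2.13 ± 0.90) and Tnf (1.07 ± 0.74) had adjusted p of 0.141 to 0.899. Treatment 1 held 183702 normalised counts of Col2a1, against 4989 to 11844 in treatment 2 to 4.

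Skeletal muscle reads were highest in treatment 2 and next in treatment 4. The 24 skeletal muscle genes summed to 186, 77201, 714 and 5366 RPM in treatment libraries, against 1858, 263, 131 and 235 in model libraries and 2594 to 43815 in sham libraries. Ckm, creatine kinase of muscle, had 2.12, 48360, 254 and 2709 normalised counts in treatment libraries, against 624, 15.2, 1.95 and 42.0 in model libraries, and 0 of the 24 were called. Leaving out treatment 2 gave 1864 lower and 803 higher calls, and the part of its muscle reads in other results was not tested further.

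**Figure D4:**
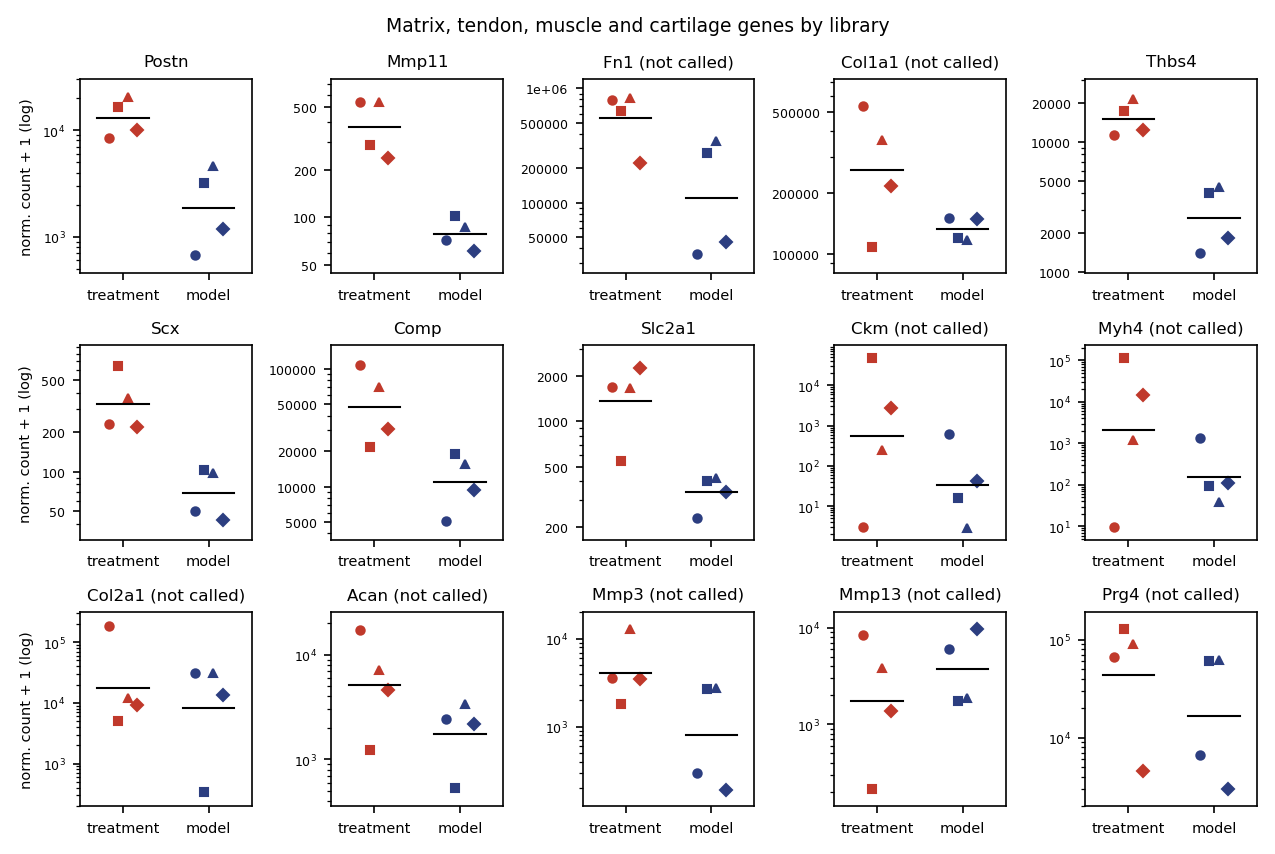
Normalised counts plus 1 (log axis) of 15 matrix, tendon, muscle and cartilage genes in treatment (red, left) and model (blue, right) libraries, with circles, squares, triangles and diamonds for replicates 1, 2, 3 and 4 and a line at the mean of the log values. Thbs4 lies between 11310 and 21228 in treatment libraries and between 1388 and 4515 in model libraries, while Ckm is at 48360 in treatment 2 and 2709 in treatment 4, against 1.95 to 624 in model libraries.

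Outside the lists, the highest rises were in genes of several tissues. Msln, mesothelin, had 265, 81.9, 413 and 494 normalised counts in treatment libraries, against 14.3, 25.6, 45.8 and 9.33 in model libraries (3.62 ± 0.66, adjusted p = 0.00927). C1qtnf3, a secreted protein of fibroblasts and cartilage (3.51 ± 0.94), Stmn2 of nerve endings (3.14 ± 0.90) and Rab15 of vesicle traffic (3.13 ± 0.75) were higher in every treatment library than in any model library. Msln kept its call without any single library, and the other 3 lost theirs without treatment 1, 3 or 4 or model 4, and Stmn2 and Rab15 also without treatment 2 or model 1 (adjusted p = 0.0508 to 0.126).

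Clock genes rose at repressors and output factors. Of 19 clock genes 9 rose and 1 fell (median 1.20), against 3.6% higher and 10.5% lower calls among all genes. Bhlhe40, a repressor that feeds back on the clock (chromosome 4, 141618476 to 141624774), had 3768, 3390, 3768 and 3744 normalised counts in treatment libraries, against 626, 921, 1169 and 731 in model libraries. The treatment libraries were nearly level, all above all model libraries, and it rose by 2.13 ± 0.20 (adjusted p = 0.00106). Bhlhe41, its relative, had 1591, 2082, 2489 and 3902 in treatment libraries, against 224, 348, 728 and 338 in model libraries (2.67 ± 0.38, adjusted p = 0.00364). Dbp, a clock output factor that binds D-boxes, had 5886, 6775, 4553 and 4561 in treatment libraries, against 790, 1862, 2370 and 1384 in model libraries (1.85 ± 0.33, adjusted p = 0.00828).

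Further clock members rose, most with calls that rested on single libraries. Nr1d1, the repressor REV-ERB alpha, had 4232, 3565, 3453 and 3262 normalised counts in treatment libraries, against 593, 1821, 1584 and 819 in model libraries (1.73 ± 0.34, adjusted p = 0.0136). Its relative Nr1d2 (1.31 ± 0.30), Ciart (1.90 ± 0.42), a repressor of CLOCK, Rora (1.54 ± 0.36), an activator of Bmal1, and the D-box factors Tef (1.20 ± 0.33) and Hlf (1.26 ± 0.32) rose, and groups did not overlap for any of them. Nfil3, which competes with Dbp at D-boxes, had 66.8, 88.7, 102 and 113 in treatment libraries, against 257, 209, 200 and 321 in model libraries, and fell by 1.40 ± 0.25 (adjusted p = 0.00842). Bhlhe40, Bhlhe41, Dbp and Nfil3 kept their calls without any single library. Nr1d1 lost its call without model 4 and the others without 2 to 6 single libraries each, treatment 1 in every case (adjusted p = 0.0502 to 0.104), so that 4 members were called higher without treatment 1 or without model 4.

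The period and cryptochrome genes were not called. Per2 had 1689, 1803, 998 and 1025 normalised counts in treatment libraries, against 427, 907, 1015 and 911 in model libraries (0.78 ± 0.32, adjusted p = 0.137). Treatment 1 and 2 were high, and treatment 3 and 4 lay by the model libraries. Per1 (0.28 ± 0.31), Per3 (0.58 ± 0.22), Cry1 (-0.40 ± 0.33) and Cry2 (0.50 ± 0.23) were not called, nor were the activators Clock (0.49 ± 0.25), Bmal1 (0.58 ± 0.34) and Npas2 (1.78 ± 0.78). The hour at which tissue was taken is not given in the labels, so hour and group cannot be told apart. The list summed to 1595 to 1952 RPM in treatment libraries, against 519 to 1077 in model libraries and 613 to 822 in sham libraries.

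The E-box that CLOCK and BMAL1 bind reads CACGTG. The promoters of Bhlhe40, Bhlhe41 and Ciart are shown because these risen genes hold it, in capitals. In GRCr8 they lie at chr4:143174200-143174499 (plus strand), chr4:180569306-180569605 (minus strand) and chr2:186112197-186112496 (minus strand).
Bhlhe40: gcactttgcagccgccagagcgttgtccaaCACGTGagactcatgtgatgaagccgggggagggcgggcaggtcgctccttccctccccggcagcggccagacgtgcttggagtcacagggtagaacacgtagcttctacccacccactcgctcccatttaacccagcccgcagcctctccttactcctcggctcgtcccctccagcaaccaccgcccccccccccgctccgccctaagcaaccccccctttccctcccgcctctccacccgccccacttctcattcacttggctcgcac
Bhlhe41: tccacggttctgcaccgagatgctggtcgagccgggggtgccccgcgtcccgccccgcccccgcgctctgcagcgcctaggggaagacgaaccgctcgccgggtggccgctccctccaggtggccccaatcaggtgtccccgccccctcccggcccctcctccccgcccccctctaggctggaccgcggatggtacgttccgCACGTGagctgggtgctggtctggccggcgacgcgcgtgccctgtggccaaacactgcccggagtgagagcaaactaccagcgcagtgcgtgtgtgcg
Ciart: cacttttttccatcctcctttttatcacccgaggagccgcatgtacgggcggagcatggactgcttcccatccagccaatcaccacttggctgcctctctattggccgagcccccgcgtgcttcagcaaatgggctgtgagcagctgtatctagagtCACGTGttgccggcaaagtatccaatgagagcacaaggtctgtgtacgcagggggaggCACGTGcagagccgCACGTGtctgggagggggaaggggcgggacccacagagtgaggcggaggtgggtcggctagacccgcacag
Ciart held 3 copies, the others 1 each. CACGTG, which reads the same on both strands, occurred in 4 of 16 clock promoters, with Tef as the fourth, in 11.4% of promoters of genes called higher, in 6.95% of those called lower, in 8.69% of those of genes tested and in 6.65% of all promoters.

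**Figure D5:**
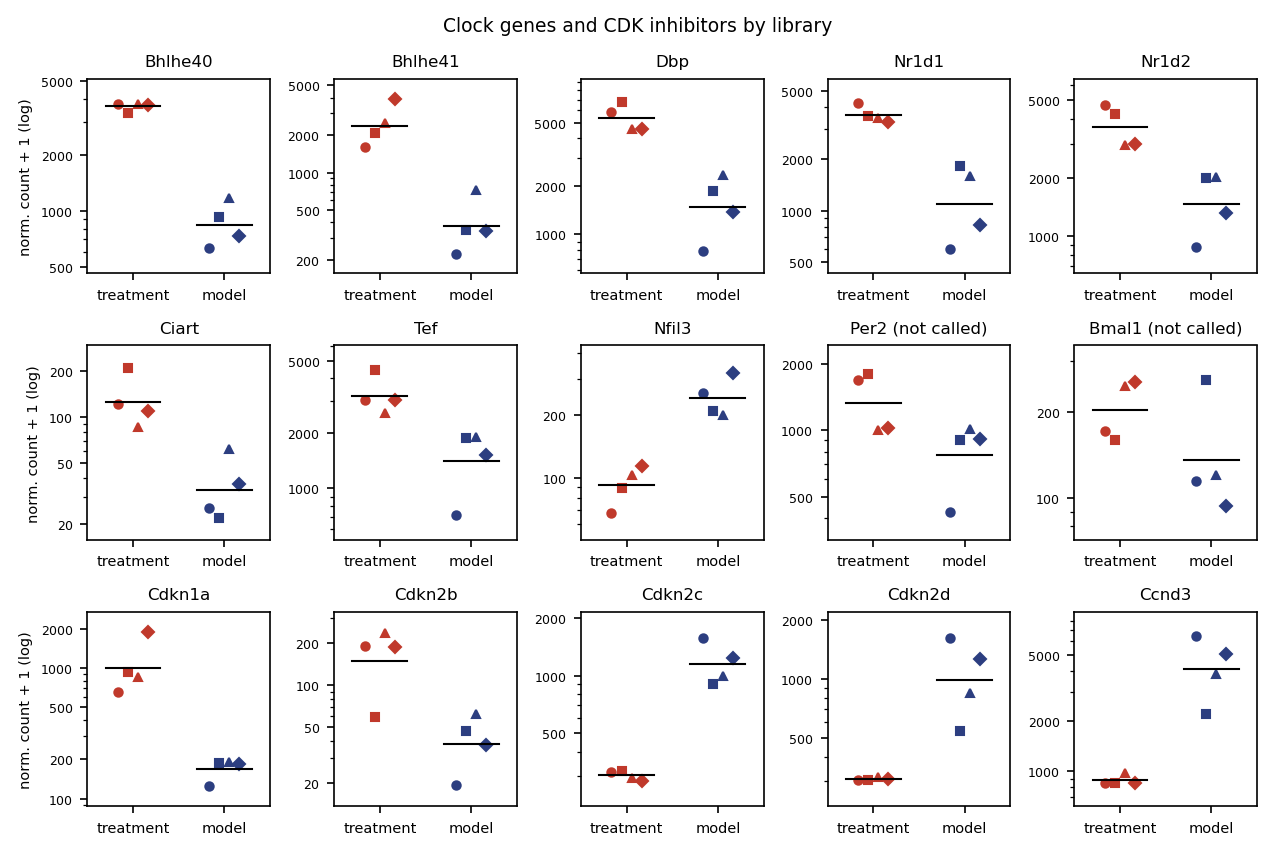
Normalised counts plus 1 (log axis) of 10 clock genes and 5 cell cycle regulators in treatment (red, left) and model (blue, right) libraries, with circles, squares, triangles and diamonds for replicates 1, 2, 3 and 4 and a line at the mean of the log values. Bhlhe40 lies between 3390 and 3768 in treatment libraries and between 626 and 1169 in model libraries, and Nfil3 lies lower in all treatment libraries.

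Some hypoxia and glycolysis genes rose. Of 18, 7 rose and 0 fell (median 1.05), and 0 were called without model 4. Among all genes tested, 3.6% were called higher and 10.5% lower. Slc2a1, the glucose transporter GLUT1, had 1698, 544, 1651 and 2263 normalised counts in treatment libraries, against 229, 401, 420 and 341 in model libraries (2.0 ± 0.42, adjusted p = 0.0176), a call lost without treatment 1 or 3 or model 4. Egln3, an oxygen sensor, rose by 1.50 ± 0.33, lost without model 3 or 4. Where lost, the adjusted p of these 2 genes was 0.0503 to 0.061. Vegfa, the vessel growth factor, was not called (0.94 ± 0.40, adjusted p = 0.148). The list summed to 3450 to 4606 RPM in treatment libraries, against 2039 to 2640 in model libraries and 3772 to 4505 in sham libraries.

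Early response and cytokine genes held calls at single members, where all genes held 3.6% higher and 10.5% lower calls. Of 21 immediate early genes 3 rose, Fos (2.18 ± 0.57), Ier3 (1.31 ± 0.26) and Klf4, and Myc fell (-0.71 ± 0.18). Fos had 1508, 2224, 3510 and 2534 normalised counts in treatment libraries, against 141, 992, 700 and 725 in model libraries. Of 22 cytokines and chemokines 1 rose, Ccl2, which recruits monocytes, with 280, 126, 815 and 725 in treatment libraries, against 17.3, 90.1, 132 and 45.7 in model libraries (2.75 ± 0.75, adjusted p = 0.0437). Treatment 2 lay just under model 3. Ier3 lost its call without model 4, Ccl2 without treatment 1, 3 or 4 or model 1 or 4, and Fos and Myc without 6 libraries each, model 4 among them (adjusted p = 0.0511 to 0.119).

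Signalling lists held calls at single members, where all genes held 3.6% higher and 10.5% lower calls. In the Wnt list 3 of 24 rose, the secreted modulators Sfrp4 (2.97 ± 0.76) and Dkk3 (2.44 ± 0.68) and the ligand Wnt2b (1.82 ± 0.41). In the TGF-beta and BMP list 2 of 26 rose, the ligand Tgfb2 (1.32 ± 0.36) and the matrix target Tgfbi (1.93 ± 0.34, adjusted p = 0.00847). Of 22 opioid, adenosine and pain genes, P2rx7, an ATP receptor of macrophages, rose (1.90 ± 0.42, adjusted p = 0.0203), with 293 to 460 normalised counts in treatment libraries, against 40.7 to 164 in model libraries. Adora1, the adenosine A1 receptor, fell (-2.43 ± 0.57, adjusted p = 0.0251), with 16.0 to 124 in treatment libraries, against 153 to 340 in model libraries. Tgfbi kept its call without any single library, and the others lost theirs without 4 or 5 single libraries each, model 4 among them (adjusted p = 0.0515 to 0.122). Of 14 glucocorticoid targets Fkbp5 fell (-1.20 ± 0.24, adjusted p = 0.0126) and 0 rose. Ribosomal protein genes (24) and mitochondrially encoded genes (13) held 0 calls.

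Of 85 microRNA genes tested, 5 fell and 3 rose, against 10.5% lower and 3.6% higher calls among all genes. As a class they held no larger share of calls than all genes did. Their reads come from a kit for longer RNA and count the hairpin gene or its precursor, not the mature strand. The genes below were picked after their values were seen. They are shown because Mir144 and Mir451a are a red cell cluster and Mir142 marks blood cells, whereas Mir21 is high in fibroblasts. The mature strands, from RefSeq in GRCr8, share no seed, which is in capitals (bases 2 to 8).
rno-miR-144-3p: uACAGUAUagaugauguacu
rno-miR-451-5p: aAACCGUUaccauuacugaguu
rno-miR-142-3p: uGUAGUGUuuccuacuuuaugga
rno-miR-21-5p: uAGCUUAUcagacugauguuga
rno-miR-24-3p: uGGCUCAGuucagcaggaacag
Mir144 (chromosome 10, 62961348 to 62961430, mRatBN7.2) had 0, 9.10, 2.0 and 0 normalised counts in treatment libraries, against 286, 36.0, 139 and 98.0 in model libraries (-5.55 ± 0.89, adjusted p = 0.00569), and Mir451a beside it fell by 4.33 ± 0.93. Mir142 fell by 1.77 ± 0.46, with overlapping groups. Mir21 had 31.8, 19.3, 31.0 and 16.1 in treatment libraries, against 5.09, 9.48, 10.7 and 5.60 in model libraries, and rose by 1.55 ± 0.43, and Mir24-2 rose by 1.73 ± 0.42. Mir144 alone kept its call without any single library, and the others lost theirs without 3 to 7 of the 8 (adjusted p = 0.0519 to 0.126).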

How the data were processed

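RNA-seq libraries of rat joint tissue were made with a Trizol extraction and a VAHTS Universal V5 kit, per the labels. The submitters' processing notes name fastp, DESeq2 and mRatBN7.2; not given in the sources used here are the aligner, counter, annotation and strand setting. The deposited signal of each gene, called normalised count here, equals whole reads divided by 1 size factor per library, set by the authors separately in each table. Whole reads came back for every value within 0.001 reads, with those of treatment 3 taken from the treatment against sham table. The authors' deposited tables also hold log2 fold changes and p-values of their comparisons. At an adjusted p under 0.05 and a log2 fold change past 1 in either direction, the authors' deposited DESeq2 values mark 3363 genes (1108 higher, 2255 lower). Of these, 2301 were also called here, where calls had no limit on fold change.

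Values were tested as log2(value + 1) with limma 3.58.1 (R 4.3.3; trend and robust options) over treatment 1 to 4 and model 1 to 4, keeping genes whose mean value reached 1, with Benjamini-Hochberg adjustment over all genes tested and calls at 0.05. Adjusted p-values, log2 fold changes (treatment minus model) and SEs in the report come from this fit. RPM (reads scaled to the same library total) and list sums were computed from the recovered reads. edgeR 4.0.16 and DESeq2 1.42.0 on those reads, other scalings, filters and pseudocounts, a replicate block and left-out libraries were the alternatives.

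Gene lists hold 826 names, of which 795 matched a gene and 786 were tested; several lists share members. The members and lists were chosen with earlier results of these data known. Genes named were the 12 highest and 12 lowest separated calls with a mean log2 value of at least 5, the first 2 members and the 3 with the smallest p in each direction of every list, all clock and cell cycle regulator members, the 20 genes with the largest gain and loss of reads, and the osteoarthritis readouts, 236 in all; other genes were added after their values were seen, among them Mcm5, Mcm3, Eomes and the microRNA genes. Not all of these are printed. Promoter and microRNA sequences are RefSeq's (GRCr8), while other coordinates are mRatBN7.2. The 4 sham libraries entered no fit.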

Additional observations from a re-analysis of the deposited data

Results flagged for a closer look

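In groups of 4 libraries, 1 library stood apart from the other 3 in 18 of 410 sets of values checked (genes or lists, per group). Chance alone marks about 1 in 20 groups, a share that these 18 of 410 did not exceed. Among treatment libraries, treatment 4 was low for F13a1, a transglutaminase of macrophages (1389 normalised counts, others 6189 to 7990), and for Vsig4 (40.81), and high for the keratinocyte list (35.03 RPM, others 12.5 to 13.8). Treatment 2 was low for Cdkn2b (58.0, others 185 to 234), for Bhlhe40 (3390) and for the Wnt list (662.7 RPM, others 1684 to 1825), and high for mitochondrially encoded genes (88670 RPM). Treatment 3 was high for Ccnd3 (977.3, others 848 to 851) and for Tnn (31860, others 9974 to 11880). Treatment 1 was low for Il6 (5.303, others 20.9 to 26.0) and Sod2 (3842, others 6478 to 6917), and high for Mir24-2 (136.8).

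Among model libraries, only model 1 stood apart. It was high for the globins Hba-a1 (983200, others 633100 to 648700) and Hbb (176700, others 101800 to 105200). It was low for Cdkn1a (124.3), for the clock genes Per2 (426.7) and Per3 (1116, others 1613 to 1650), and for the cytokine list (189.7 RPM, others 309 to 335).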

How the results depend on the processing

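Of 159 genes followed through 22 alternatives, 118 were called and 64 of these in every alternative that gave them a value; 65 kept their call without any single library. None of the 2870 calls had the opposite sign in an alternative. Without 1 library the calls were 1178 (without model 4) to 4146 (without model 2), with 94 to 1360 higher and 1084 to 2786 lower. DESeq2 called 4845 genes (1865 higher), limma-voom with quality weights 5558 (2689 higher) and edgeR 2590 genes. Higher calls were 384 without limma's trend and robust options and 340 under total reads scaling. With treatment 2 and model 1 left out together, a choice made after seeing the data, 1388 genes were lower, and with treatment 2 and model 2 left out together, chosen likewise, 1468 were higher. The cause of these shifts was not tested.

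The replicate block gave 2204 calls (432 higher, 1772 lower). Same-numbered treatment and model libraries did not deviate together (correlations of -0.11, 0.08, 0.14 and 0.05), so the numbers were not taken to pair them, and not every library correlated best with its own number.

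Fold changes that turned sign all belong to genes that were not called. With treatment 2 and model 1 left out they were 0.11 for Ccr2, -0.71 for Vsig4, -0.25 for Pecam1 and 0.17 for Mmp13; with treatment 2 and model 2 left out, 0.22 for Cd3e and -0.52 for Vsig4. With quality weights Vsig4 was at -0.40 and Per1 at -0.06, and under total reads scaling Vsig4 was at -0.07. Without 1 library, Cd3e ran from -1.0 to 0.02, Vsig4 from -0.35 to 1.21, Pecam1 from -0.13 to 0.86, Col2a1 from -0.41 to 1.77 and Adamts4 from -0.43 to 0.84.

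Without any 1 library, erythroid genes held 19 to 22 lower calls and cell cycle genes 24 to 26, while clock genes held 4 to 11 higher calls, matrix glycoproteins 1 to 9 and collagen chains 0 to 8. Depth limits genes at a few reads, where a fold change depends on the pseudocount. Reads of near-identical globin and antibody genes, and of overlapping genes, cannot be told apart, and strand is not known.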
